A study of Mus musculus with 9 samples.

Results

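Effector cytokines are the secreted proteins through which an activated T cell acts on other cells. The genes described here are Ifng, Il2, Il3, Csf2, Il10, Il21, Il24, Lif and Spp1, which were taken by symbol from a list of 9 names. All 9 were found among the 24060 genes of the expression table. They were followed over 9 RNA libraries of activated mouse CD8 T cells, 3 from each of the clones R7-I, R7-III and R7-II. Each clone came from a transnuclear mouse line made from the nucleus of a single T cell, on a Rag2-proficient BALB/c background, so that each group stands for 1 receptor and 1 founder cell. The receptors of all the lines recognise a peptide of ROP7, a protein of the parasite Toxoplasma gondii, on the class I molecule H-2Ld. The labels order the affinity for this peptide as R7-I above R7-III above R7-II, and the self-reactivity as R7-III above R7-I above R7-II. Spleen cells of every group were kept overnight with 10 μM ROP7 peptide and 10 ng/ml recombinant mouse IL-2, and live cells positive for CD3, CD8 and the peptide tetramer were then sorted to a stated purity of 90 to 95%. The deposited table used here holds no library without peptide or without added IL-2, so the values describe differences between activated clones and not induction. The replicates are labelled biological, but nothing states that they were separate animals, and the p-values measure only the spread between these libraries.

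Naive CD8 T cells hold most cytokine genes silent, and a signal from the receptor switches them on through calcium and NFAT together with AP-1 and NF-κB. Interferon-gamma activates macrophages and antigen presentation, IL-2 and IL-21 signal through receptors that share the common gamma chain, and IL-3 and GM-CSF (the product of Csf2) share the common beta chain and act on myeloid cells. IL-10 and IL-24 belong to the IL-10 family, LIF signals through gp130 like IL-6, and osteopontin (the product of Spp1) is a secreted ligand of integrins and CD44.

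The libraries carried the transcripts that define the sorted cells. Expression is given in TPM, the share of a gene's transcripts in a library scaled to a sum of 1000000. It is corrected for gene length and keeps no record of sequencing depth. Cd8a, a chain of the CD8 co-receptor, lay at 339 to 349 TPM in R7-I, 393 to 452 TPM in R7-II and 372 to 380 TPM in R7-III. Cd3e, a chain of the receptor complex, lay at 267 to 272, 366 to 389 and 316 to 331 TPM. Cd4 did not exceed 1.00 TPM in any library, and Foxp3, the factor of regulatory T cells, did not exceed 1.07 TPM. Both were highest in R7-II without overlap, Cd4 at 0.22 to 0.43, 0.95 to 1.00 and 0.29 to 0.53 TPM. Foxp3 lay at 0.29 to 0.56, 0.62 to 1.07 and 0.18 to 0.30 TPM. Transcripts of other cell types were also present, and those of B cells, myeloid cells and MHC class II were most abundant in R7-II. The summed level of 8 B cell markers was 8.58 to 15.9 TPM in R7-I, 35.3 to 73.6 TPM in R7-II and 5.10 to 8.01 TPM in R7-III, with Cd79b the most abundant. Myeloid markers, 9 genes, summed to 5.10 to 6.97, 23.9 to 80.4 and 6.30 to 7.44 TPM, and Cd14 was at 0 in all R7-I libraries. Lyz2, the most abundant over all libraries together, lay at 0.25 to 0.65, 13.8 to 56.7 and 1.57 to 2.43 TPM. Markers of MHC class II and dendritic cells, 8 genes led by Cd74, summed to 28.3 to 44.6, 101 to 168 and 20.3 to 23.5 TPM. At an adjusted p under 0.01, 8 of 8 B cell markers tested, 7 of 8 myeloid markers and 4 of 5 MHC class II and dendritic markers had higher levels in R7-II when set against R7-I, and the numbers were the same when it was set against R7-III. Over all genes tested, 40.6% were higher and 15.5% lower in R7-II against R7-I, and 35.6% higher and 18.0% lower in R7-II against R7-III. Of these markers, 3 B cell, 5 myeloid and 1 MHC class II and dendritic gene exceeded 1 TPM in R7-II alone, so the filter of more than 1 TPM in at least 1 library admitted them only where they are high. The same holds for 513 of all 11330 genes tested. The part of these markers in the cytokine results was not tested. Sums of 4 CD4 T cell and Treg markers were 3.36 to 4.11, 4.03 to 5.81 and 5.62 to 8.01 TPM in R7-I, R7-II and R7-III. Cd40lg was the most abundant. Zbtb7b, which was not tested, lay at 0.21 to 0.36, 0.61 to 0.87 and 0.52 to 0.69 TPM, and Cd4 was not tested either. Of the 2 tested, 0 passed in R7-II against R7-I by limma, with 1 higher at an unadjusted p under 0.05. In R7-II against R7-III, Foxp3, which exceeded 1 TPM in R7-II alone, was higher by 0.59 (adjusted p = 0.0041) and Cd40lg lower by a log2 difference of -1.03 (adjusted p = 7.61e-04). The Foxp3 call was lost without R7-II replicate 1 or 3 or any single R7-III library (adjusted p up to 0.0186) and with quantile normalization. NK and NKT cell markers, 4 genes led by Klre1, summed to at most 0.74 TPM. Mast cell and basophil markers, 5 genes led by Mcpt8, summed to 0.17 to 0.27 TPM in R7-I, 1.06 to 3.73 TPM in R7-II and 0.45 to 1.25 TPM in R7-III, and the 1 tested, above 1 TPM in R7-II alone, was higher in R7-II against R7-I and did not pass against R7-III. Erythroid markers, 5 genes led by Hbb-b1, summed to 42.7 to 127 TPM in R7-I, 1.95 to 20.4 TPM in R7-II and 12.1 to 37.0 TPM in R7-III, and 1 of the 3 tested was lower in R7-II against R7-I, while 0 passed against R7-III by limma, with 1 lower at an unadjusted p under 0.05. The 10 CD8 T cell markers summed to 2702 to 2795, 3472 to 3491 and 2923 to 3056 TPM, with 7 higher and 1 lower in R7-II against R7-I. In R7-II against R7-III, 8 were higher and 1 lower. The lower gene was Cd5 in both, at 531 to 564, 304 to 423 and 673 to 691 TPM. It was the most abundant over all libraries together, but in R7-II Lck had the highest mean of the list, at 515 to 536 TPM. Cd8b1 (496 to 555 TPM) and Cd3g (496 to 511 TPM) were among the others above Cd5 there. In these bulk libraries, fewer cells that make a cytokine and less of its RNA per cell cannot be told apart.

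R7-II held the least of each cytokine transcript of the list that passed the filter on low values. Of the 9 genes, 5 passed the filter of more than 1 TPM in at least 1 library (Ifng, Il2, Il3, Csf2 and Lif), and 4 did not (Il10, Il21, Il24 and Spp1) and were not tested. Il3 and Csf2 passed only through R7-I and R7-III, since their R7-II values lay below 1 TPM. The filter thus admits these genes only where they differ, and counts that include them are a description. The 9 genes were also chosen with earlier results of these data known, so no count here tests cytokines as a group. The genes past the filter were tested with limma on log2(TPM + 1) among all 11330 genes that passed, with a threshold of 0.01 on the adjusted p. In R7-II against R7-I, 5 of the 5 tested were lower, against 15.5% of all genes tested, and 0 were higher, against 40.6%. In R7-II against R7-III, 5 of the 5 were lower, against 18.0% of all genes, and 0 were higher, against 35.6%. The 3 genes above 1 TPM in every library (Ifng, Il2 and Lif) were lower in both comparisons. None of the 5 genes tested was higher at an unadjusted p under 0.05 in either comparison. In R7-III against R7-I, 2 of the 5 were higher (Il3 and Csf2), against 6.96% of all genes, and 0 were lower, against 1.45%. At an unadjusted p under 0.05, Il2 was also higher and Lif was lower in that comparison. The comparisons share libraries, so they are not independent of each other. The median difference of all genes tested was 0.17, 0.12 and 0.04 on the log2 scale in these comparisons, and 72.4%, 66.4% and 82.8% of the genes past the threshold were higher. With median-of-ratios scaling, which sets the typical gene to no change, the medians moved to -0.0013, -0.0023 and -0.0034 and the shares to 46.2%, 47.0% and 56.6%. The 5 cytokines kept their direction in every comparison under that scaling.

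**Figure D1:**
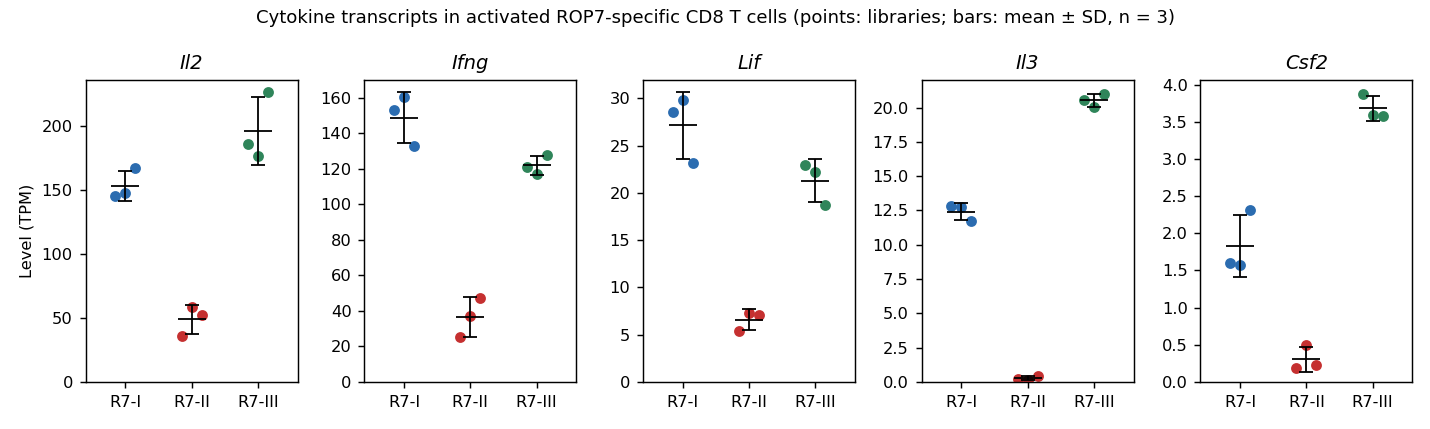
Level of 5 cytokine genes in TPM (vertical axis, linear and starting at 0) by clone; points are libraries and bars are the mean ± SD of 3. In every panel the R7-II points lie below all others, with Il3 at 0.12 to 0.41 TPM in R7-II and 20.1 to 21.0 TPM in R7-III.

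Ifng encodes interferon-gamma, the cytokine by which CD8 T cells arm macrophages and raise antigen display on infected cells. Its level was 153, 160 and 133 TPM in the R7-I libraries, 25.2, 36.9 and 47.5 TPM in R7-II and 121, 117 and 128 TPM in R7-III. All R7-II libraries lay far below the rest, and R7-I lay above R7-III without overlap. The means were 149 ± 14.4, 36.6 ± 11.2 and 122 ± 5.39 TPM (SD, n = 3). R7-II was thus 4.07-fold below R7-I, a log2 difference of -2.04 (SE 0.171, adjusted p = 2.85e-06 by limma), and 3.34-fold below R7-III, a log2 difference of -1.76 (adjusted p = 8.37e-06). The order of the levels was R7-I, R7-III, R7-II. The step between R7-III and R7-I was -0.28 on the log2 scale (95% interval -0.66 to 0.10, adjusted p = 0.292), which did not pass the threshold.

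Il2 encodes IL-2, the growth factor that T cells make for themselves and their neighbours, and here it is read as endogenous RNA in cells that also received the protein. Its level was 145, 147 and 167 TPM in the R7-I libraries, 35.8, 58.1 and 52.3 TPM in R7-II and 186, 176 and 226 TPM in R7-III. The groups did not overlap, and R7-III, not R7-I, was highest. Means were 153 ± 12.0, 48.8 ± 11.6 and 196 ± 26.6 TPM (SD, n = 3). R7-II was 3.14-fold below R7-I (log2 difference -1.66, SE 0.152, adjusted p = 5.19e-06 by limma) and 4.02-fold below R7-III (log2 difference -2.01, adjusted p = 1.37e-06). The difference between R7-III and R7-I was 0.35 on the log2 scale (95% interval 0.013 to 0.69, adjusted p = 0.140) and did not pass the threshold. Il21, the gene of the other common gamma chain cytokine, lies 96.8 kb from Il2 on chromosome 3 and was nearly absent. It was at 0.03 TPM in 1 R7-I library and 0.05 TPM in 1 R7-III library, and at 0 in the other 7.

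Il3 encodes IL-3, a growth factor of basophils, mast cells and myeloid progenitors, and it had the largest ratio of mean TPM between R7-II and either other clone among the 5 genes tested. Its level was 12.8, 12.7 and 11.7 TPM in the R7-I libraries, 0.24, 0.12 and 0.41 TPM in R7-II and 20.5, 20.1 and 21.0 TPM in R7-III. The transcript was thus close to absent in R7-II and tightly grouped in the other clones, with no overlap. Means were 12.4 ± 0.604, 0.257 ± 0.146 and 20.5 ± 0.455 TPM (SD, n = 3), so that R7-II was 48.4-fold below R7-I and 80.0-fold below R7-III. The log2 differences were -3.42 (SE 0.0899, adjusted p = 6.19e-09 by limma) and -4.10 (adjusted p = 1.28e-09). On this scale, with 1 added to the TPM, these ranked 4 and 2 from the lowest of the 11330 genes tested. With 5 added, the Il3 difference against R7-I was -1.73, while that of Ifng stayed at or below -1.80 in every alternative. R7-III exceeded R7-I 1.65-fold, a log2 difference of 0.68 (95% interval 0.48 to 0.88, adjusted p = 6.87e-04), so the order was R7-III, R7-I, R7-II. Each step passed the threshold with 1 added, but that between R7-III and R7-I did not with 0.1 added (adjusted p = 0.0559 by limma). The steps to R7-II are a description, since Il3 passed the filter only through the other clones.

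Csf2 encodes GM-CSF, which recruits and activates macrophages, granulocytes and dendritic cells, and it was expressed at a far lower level in the same order. It lay at 1.60, 1.58 and 2.31 TPM in the R7-I libraries, 0.19, 0.50 and 0.23 TPM in R7-II and 3.88, 3.59 and 3.58 TPM in R7-III. The groups did not overlap. Means were 1.83 ± 0.416, 0.307 ± 0.169 and 3.68 ± 0.170 TPM (SD, n = 3). R7-II was 5.97-fold below R7-I (log2 difference -1.11, SE 0.135, adjusted p = 3.67e-05 by limma) and 12.0-fold below R7-III (log2 difference -1.85, adjusted p = 1.04e-06). R7-III exceeded R7-I 2.01-fold, with a log2 difference of 0.74 (95% interval 0.44 to 1.04, adjusted p = 0.00421). That call was lost when any of 5 single libraries was left out, with adjusted p-values of 0.0240 and 0.0208 without R7-I replicate 1 or 2 and 0.0223, 0.0179 and 0.0168 without R7-III replicate 1, 2 or 3. With a pseudocount of 0.1 in place of 1, Csf2 and Il3 both missed the threshold in R7-III against R7-I (adjusted p = 0.0310 and 0.0559). Since R7-II held under 1 TPM of either transcript, the size of their log2 differences follows the pseudocount. For Il3 they were -5.22 and -5.94 with 0.1 and -1.73 and -2.28 with 5, and for Csf2 they were -2.30 and -3.29 with 0.1 and -0.36 and -0.71 with 5. All of these kept their side of the threshold.

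**Figure D2:**
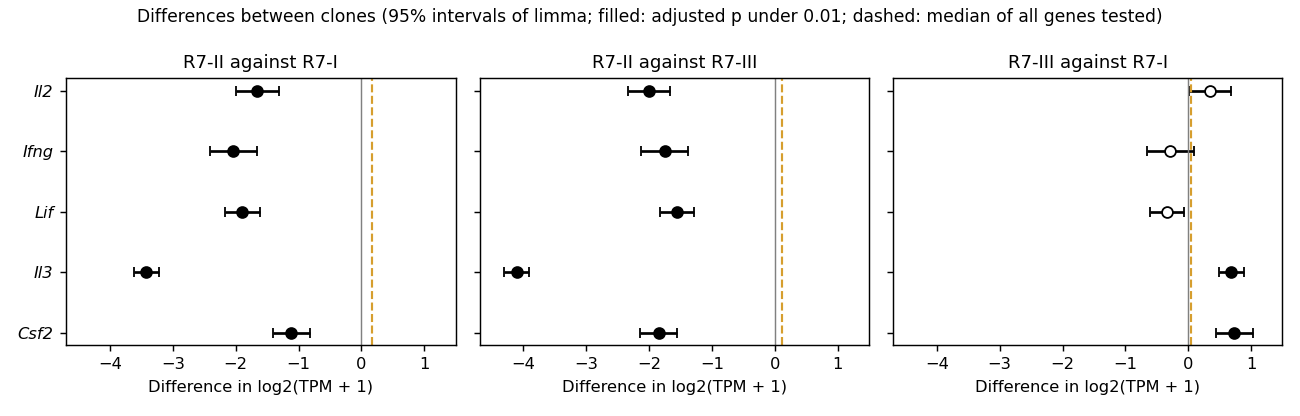
Differences in log2(TPM + 1) between clones for 5 cytokine genes, with 95% intervals from limma over 9 libraries; filled points passed an adjusted p of 0.01 and the dashed line is the median of all genes tested. All intervals of the R7-II comparisons lie below 0, and in R7-III against R7-I the filled points are Il3 at 0.68 and Csf2 at 0.74.

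Il3 and Csf2 are neighbours, separated by 15.2 kb on chromosome 11 of mm10 (Csf2 at chr11:54247270-54249899 and Il3 at chr11:54265085-54267279, both on the minus strand). The next gene beyond Il3, 36.5 kb away, is Acsl6, which encodes a long-chain acyl-CoA synthetase. It was at 4.15, 4.32 and 4.16 TPM in the R7-I libraries, 0.15, 0.40 and 0.72 TPM in R7-II and 6.97, 6.38 and 6.31 TPM in R7-III. Acsl6 was therefore also lowest in R7-II and highest in R7-III, without overlap. It was singled out after its values were seen. Like Il3 and Csf2, it passed the filter only through R7-I and R7-III, so its differences are a description. Its log2 difference was -1.89 in R7-II against R7-I (adjusted p = 8.46e-07 by limma) and -2.43 in R7-II against R7-III (adjusted p = 1.87e-07), while that of R7-III against R7-I was 0.53 (adjusted p = 0.0190). On the other side of Csf2, 115.6 kb away, P4ha2 did not exceed 0.36 TPM. Pdlim4, the next gene, exceeded 1 TPM in R7-II alone, at 0.69 to 2.19 TPM, with 0.10 to 0.16 TPM in R7-I and 0.41 to 0.57 TPM in R7-III.

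**Figure D3:**
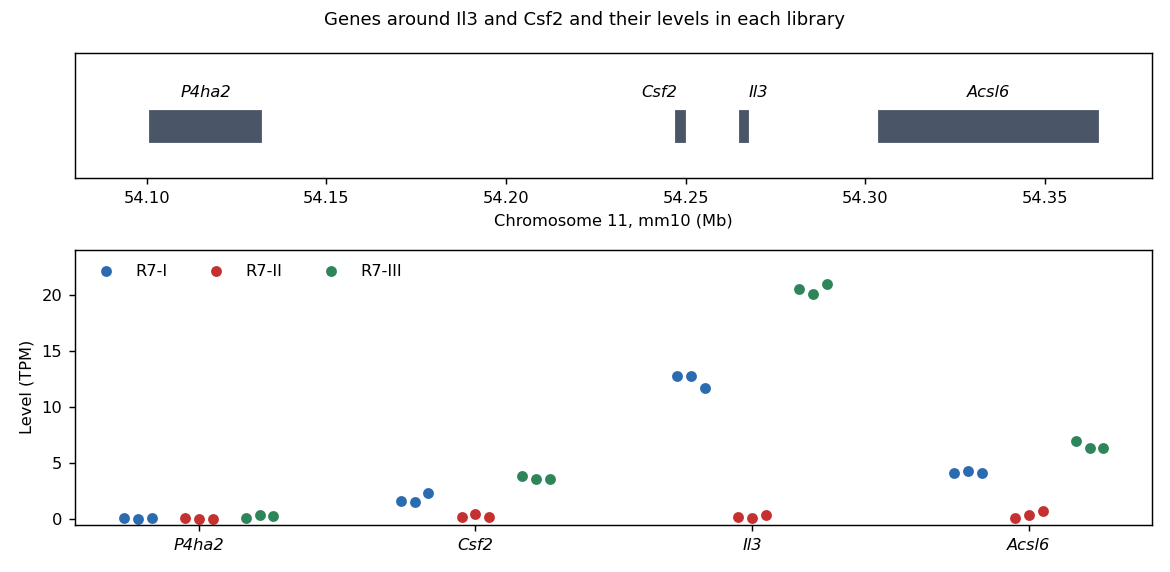
Map of the region of chromosome 11 (mm10, positions in Mb, to scale) that holds P4ha2, Csf2, Il3 and Acsl6, above the level of each gene in TPM in the 9 libraries. Csf2, Il3 and Acsl6 are each lowest in R7-II and highest in R7-III, and P4ha2 does not exceed 0.36 TPM.

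Lif encodes leukemia inhibitory factor, a cytokine of the IL-6 family. Its level was 28.5, 29.8 and 23.1 TPM in the R7-I libraries, 5.35, 7.30 and 7.12 TPM in R7-II and 23.0, 22.2 and 18.7 TPM in R7-III. R7-II was again far below the others, and the lowest R7-I library stood just above the highest R7-III library. Means were 27.2 ± 3.55, 6.59 ± 1.08 and 21.3 ± 2.30 TPM (SD, n = 3). R7-II was 4.12-fold below R7-I (log2 difference -1.89, SE 0.124, adjusted p = 5.44e-07 by limma) and 3.23-fold below R7-III (log2 difference -1.56, adjusted p = 1.94e-06). R7-III and R7-I differed by -0.33 on the log2 scale (95% interval -0.61 to -0.06, adjusted p = 0.0877), short of the threshold. Osm, the gene of the related cytokine oncostatin M, lies 16.5 kb from Lif and did not share its pattern. It was at 4.20 to 7.70 TPM in R7-I, 9.31 to 10.0 TPM in R7-II and 6.12 to 6.38 TPM in R7-III. Osm in R7-II exceeded R7-I by 0.64 (adjusted p = 0.00293) and R7-III by 0.57 (adjusted p = 0.00584) on the log2 scale, but median-of-ratios scaling ended both calls (adjusted p = 0.0195 and 0.0245). Leaving out any single R7-II or R7-III library also ended the call against R7-III, with adjusted p-values up to 0.0189.

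The IL-10 family members and osteopontin were at or near 0 in all clones. Il10, the gene of an anti-inflammatory cytokine, was at 0 in all R7-I libraries, 0.08, 0 and 0.09 TPM in R7-II and 0.06, 0 and 0 TPM in R7-III. Il24 was at 0.08, 0 and 0.10 TPM in R7-I, 0 in all R7-II libraries and 0.07, 0.17 and 0 TPM in R7-III. Spp1 was at 0 in all R7-I libraries, 0, 0.22 and 0.24 TPM in R7-II and 0.05, 0 and 0.27 TPM in R7-III. None of these genes formed groups that stood apart, and no limit was computed for a 0, since the table holds no counts. When all genes above 0 were tested with limma without a filter, the lowest adjusted p of these genes and Il21 was 0.124, for Il10 in R7-II against R7-I. Il24 and Il10 lie 132.4 kb apart on chromosome 1 with Il19 and Il20 between them, and Il19 did not exceed 0.11 TPM and Il20 was at 0 in every library. Mapkapk2, which encodes a stress kinase and lies 28.7 kb beyond Il10, was at 101 to 116 TPM.

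The 9 genes together made up 337 to 352 TPM in R7-I, 66.9 to 108 TPM in R7-II and 339 to 398 TPM in R7-III. The total was thus alike in R7-I and R7-III, while its make-up differed. The ratio of Il2 to Ifng was 0.919 to 1.26 in R7-I, 1.10 to 1.57 in R7-II and 1.51 to 1.77 in R7-III, so that Il2 exceeded Ifng in each R7-III and R7-II library, and the R7-II range overlapped those of both other clones. Il3 made up 3.48 to 3.75% of the sum in R7-I, 0.116 to 0.380% in R7-II and 5.28 to 5.92% in R7-III, with no overlap. Ifng and Lif kept nearly the same ratio in all clones, at 5.38 to 5.74 in R7-I, 4.71 to 6.68 in R7-II and 5.27 to 6.84 in R7-III. Relative to Il3, Il2 stood 11.3 to 14.2 times higher in R7-I, 128 to 484 times in R7-II and 8.78 to 10.8 times in R7-III. The R7-II transcripts were therefore not lowered in one proportion. These ratios are descriptions and were not tested.

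Some genes had profiles much like those of the cytokines over the 9 libraries. Likeness was measured as the root mean square difference between profiles of log2(TPM + 1), each centred on its own mean, among all 11330 genes. The gene nearest to Ifng was Lif, at 0.184, followed by Tbkbp1 (0.232) and Nek6 (0.237). The nearest to Lif was Ifng, followed by Iigp1 (0.197), an interferon-inducible GTPase, and Ccl3 (0.198), a chemokine. Ccl3 was at 1366 to 1518 TPM in R7-I, 402 to 417 TPM in R7-II and 1033 to 1210 TPM in R7-III. Nearest to Il2 were Crabp2 (0.151), which encodes a retinoic acid binding protein, Hells (0.189), a chromatin remodeller, and Nek6 (0.196). Crabp2 was at 63.3 to 69.1, 16.2 to 23.5 and 73.8 to 86.6 TPM in the 3 clones. For Csf2 the nearest were the DNA repair gene Brca1 (0.138), the spindle gene Ckap2l (0.140) and the helicase gene Recql4 (0.148). Recql4 was at 12.7 to 15.1, 5.92 to 6.20 and 22.3 to 26.3 TPM. No gene came as close to Il3, whose nearest was Tbx21 at 0.494, followed by Dapl1 (0.582) and Tnfsf11 (0.616), the gene of RANKL.

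Other cytokine genes differed in both directions. Of 35 other secreted cytokines, 11 passed the filter, and among these, of which Il12a and Il1b exceeded 1 TPM in R7-II alone, 3 were higher and 3 lower in R7-II than in R7-I, beside 40.6% and 15.5% of all genes. The counts were again 3 and 3 in R7-II against R7-III, beside 35.6% and 18.0%, and 2 higher and 1 lower in R7-III against R7-I, beside 6.96% and 1.45%. Their median differences were -0.07, -0.15 and 0.07 on the log2 scale, beside 0.17, 0.12 and 0.04 over all genes. With median-of-ratios scaling, 1 was higher and 4 were lower in each R7-II comparison. Of all 11330 genes, 6194 and 6035 passed in these comparisons under that scaling, 46.2% and 47.0% of them higher. Tnf, which encodes a cytokine that CD8 T cells make together with interferon-gamma, was at 144, 149 and 148 TPM in the R7-I libraries, 99.1, 95.0 and 118 TPM in R7-II and 108, 112 and 125 TPM in R7-III. Tnf was lower in R7-II than in R7-I by a much smaller step than Ifng, with a log2 difference of -0.50 (adjusted p = 1.58e-04 by limma). Its difference of -0.15 against R7-III did not pass (adjusted p = 0.102). The ratio of Ifng to Tnf was 0.898 to 1.07 in R7-I, 0.254 to 0.404 in R7-II and 1.02 to 1.12 in R7-III. In R7-III against R7-I, Tnf was lower by a log2 difference of -0.35 (adjusted p = 0.00917), a call that 9 of 19 alternative settings ended, leaving out any of 6 single libraries among them (adjusted p up to 0.0392). Mif, the most abundant of these cytokines, was at 2051 to 2264 TPM in R7-II and 2481 to 2731 TPM in the other clones. Csf1, the gene of the macrophage growth factor, was at 1.00 to 1.55 TPM in R7-I, 0.63 to 1.00 TPM in R7-II and 4.18 to 4.83 TPM in R7-III. It was higher in R7-III than in R7-I by 1.30 on the log2 scale (adjusted p = 1.20e-04). Il16 went the other way, at 11.7 to 13.6 TPM in R7-I, 37.4 to 48.0 TPM in R7-II and 15.3 to 16.2 TPM in R7-III (log2 differences of R7-II 1.73 and 1.42). Il1a was lower in R7-II than in R7-I (log2 difference -0.77, adjusted p = 0.00326), and leaving out R7-I replicate 1 or 2 or R7-II replicate 1 or 2 ended that call, with adjusted p-values up to 0.0170.

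Receptor transcripts for the cytokines differed in both directions. Of 23 receptor genes, 19 were tested, and 11 were higher and 4 lower in R7-II against R7-I, where 40.6% of all genes were higher and 15.5% lower. In R7-II against R7-III, 10 were higher and 4 lower, where 35.6% of all genes were higher and 18.0% lower. Csf2rb, Csf2rb2 and Itgb3 exceeded 1 TPM in R7-II alone and were thus tested only through the clone where they are high. The medians of the list were 0.67 and 0.60 on the log2 scale, beside 0.17 and 0.12 over all genes. With median-of-ratios scaling the counts were 10 and 5, and 10 and 6. Under that scaling 6194 and 6035 of all 11330 genes passed, 46.2% and 47.0% of them higher. Whether the list differs from other genes was not tested. In R7-III against R7-I, 0 passed by limma in either direction, beside 6.96% higher and 1.45% lower of all genes. At an unadjusted p under 0.05, 4 were higher and 3 lower, but no share of all genes was computed at that cutoff. With median-of-ratios scaling 0 were higher and 1 was lower in that comparison, where 973 of all 11330 genes passed, 56.6% of them higher. Il2ra, the high-affinity chain of the IL-2 receptor, was at 364 to 392 TPM in R7-I, 246 to 274 TPM in R7-II and 346 to 369 TPM in R7-III. It was lower in R7-II by -0.54 and -0.46 (adjusted p = 1.95e-06 and 5.94e-06). Il2rg, the common gamma chain, was instead higher in R7-II, at 745 to 807 TPM against 592 to 614 TPM for R7-I and 625 to 665 TPM for R7-III. The genes of the osteopontin receptors were split in direction. Itga4 was at 10.2 to 17.1 TPM in R7-II against 3.66 to 4.38 TPM for R7-I and 2.68 to 2.82 TPM for R7-III, with log2 differences of 1.63 and 2.03. Itgb3 was at 1.23 to 2.86 TPM in R7-II against 0.07 to 0.21 TPM for R7-I and 0.30 to 0.44 TPM for R7-III. Of the same receptors, Cd44 was lower in R7-II, at 61.4 to 93.8 TPM against 169 to 177 TPM for R7-I and 194 to 198 TPM for R7-III, with log2 differences of -1.17 and -1.35 (adjusted p = 6.64e-06 and 2.56e-06). The integrin genes Itgav (log2 differences -0.77 and -0.55) and Itgb1 (-0.56 and -0.61) were lower too, and these 3 genes were added after their values were seen. Il20rb, a receptor chain for IL-24, was at 4.32 to 5.08 TPM in R7-II and at 0.90 to 1.57 TPM elsewhere. B cell, myeloid and MHC class II marker sums were also highest in R7-II, and their part in the receptor values was not tested.

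All 11 genes of JAK kinases and STAT factors, which carry cytokine signals to the nucleus, were tested. In R7-II against R7-I, 7 were higher and 2 lower, beside 40.6% and 15.5% of all genes. The counts were 4 and 4 with median-of-ratios scaling, where 6194 of all 11330 genes passed, 46.2% of them higher. Before that scaling the median difference of the list was 0.22, near the 0.17 of all genes. In R7-II against R7-III, 4 were higher and 3 lower, beside 35.6% and 18.0% of all genes. The counts there were 3 and 4 with that scaling, where 6035 of all genes passed, 47.0% of them higher. For R7-III against R7-I the counts were 2 higher and 0 lower by limma, beside 6.96% and 1.45% of all genes. At an unadjusted p under 0.05, 3 were higher and 2 lower, but no share of all genes was computed at that cutoff. With median-of-ratios scaling the counts were 1 and 1, where 973 of all 11330 genes passed, 56.6% of them higher. Stat4, the STAT of IL-12 signals that favour Ifng, was at 122 to 127 TPM in R7-I, 73.3 to 75.1 TPM in R7-II and 108 to 115 TPM in R7-III. It was lower in R7-II by -0.73 and -0.58 on the log2 scale (adjusted p = 6.76e-08 and 2.46e-07 by limma). Stat5a, which transmits the IL-2 signal, was lower in R7-II than in R7-I by -0.40 (adjusted p = 1.16e-04). Its difference of -0.25 against R7-III (adjusted p = 0.00312) lost the threshold in 6 of 19 alternative settings, leaving out any of 4 single libraries among them (adjusted p up to 0.0150). Jak1 and Stat2 were higher in R7-II, by 0.62 and 0.93 against R7-I and by 0.66 and 0.72 against R7-III. Stat6 was the most abundant gene of the list in R7-II, at 215 to 237 TPM against 194 to 197 TPM in the other clones, and its calls were lost with median-of-ratios scaling (adjusted p = 0.573 and 0.0789). Tyk2 was higher in R7-III than in R7-I by 0.30 (adjusted p = 0.00112). Jak3 was higher there by 0.21 (adjusted p = 0.00423), a call that 9 of 19 alternative settings ended, median-of-ratios scaling among them (adjusted p = 0.0383).

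Among 36 genes of factors that act on cytokine genes, 33 were tested. In R7-II against R7-I, 13 were higher and 9 lower, beside 40.6% and 15.5% of all genes, and the median was 0.05, beside 0.17 over all genes. There were 10 higher and 10 lower in R7-II against R7-III, beside 35.6% and 18.0% of all genes. In R7-III against R7-I 0 were higher and 1 was lower, beside 6.96% and 1.45% of all genes. At an unadjusted p under 0.05 by limma, 7 were higher and 5 lower in that comparison, but no share of all genes was computed at that cutoff. With median-of-ratios scaling 0 were higher and 2 lower there, where 973 of all 11330 genes passed, 56.6% of them higher. With median-of-ratios scaling the counts of the R7-II comparisons were 10 higher and 11 lower, and 9 higher and 12 lower. Under that scaling 6194 and 6035 of all 11330 genes passed in them, 46.2% and 47.0% of these higher. Tbx21, which encodes T-bet, an activator of Ifng, was at 45.5, 47.1 and 44.2 TPM in the R7-I libraries, 3.38, 6.47 and 5.91 TPM in R7-II and 54.3, 52.7 and 42.1 TPM in R7-III. It was lower in R7-II, with log2 differences of -2.94 against R7-I and -3.05 against R7-III (adjusted p = 2.31e-07 and 2.01e-07 by limma), while R7-III and R7-I overlapped. Fosb, a subunit of AP-1, was at 6.27 to 6.76 TPM in R7-II and 1.21 to 1.59 TPM in the other clones. Nfkb1 was the most abundant factor and the gene that passed in R7-III against R7-I. It was at 719 to 740 TPM in R7-I, 560 to 567 TPM in R7-II and 624 to 633 TPM in R7-III. Irf4, induced by the T cell receptor, was at 486 to 515, 369 to 428 and 459 to 479 TPM, and was lower in R7-II than in R7-I by -0.31 (adjusted p = 2.97e-04).

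Many cytokine messages are controlled by proteins that bind AU-rich elements or stem-loops, and 12 genes of such proteins were tested, most of them decay factors. In R7-II against R7-I, 6 were higher and 1 lower (Elavl1, which stabilises messages, by a log2 difference of -0.16), beside 40.6% and 15.5% of all genes. In R7-II against R7-III, 7 were higher and 0 lower, beside 35.6% and 18.0% of all genes, with 1 lower at an unadjusted p under 0.05. With median-of-ratios scaling the counts were 5 and 5, and 6 and 4. Under that scaling 6194 and 6035 of all 11330 genes passed in these comparisons, 46.2% and 47.0% of them higher. In R7-III against R7-I, 0 passed by limma, beside 6.96% and 1.45% of all genes. At an unadjusted p under 0.05, 1 was higher and 2 lower, but no share of all genes was computed at that cutoff. With median-of-ratios scaling 2 were lower there, where 973 of all 11330 genes passed, 56.6% of them higher. Zc3h12d, a ribonuclease of the Regnase family, was at 25.3 to 30.3 TPM in R7-I, 65.0 to 68.8 TPM in R7-II and 25.5 to 26.6 TPM in R7-III. It was higher in R7-II by 1.22 and 1.33 on the log2 scale (adjusted p = 1.23e-07 and 9.48e-08). Zfp36, which encodes tristetraprolin, was at 91.9 to 107 TPM in R7-II and 63.0 to 67.4 TPM in the other clones, and Zfp36l1 at 223 to 239 TPM against 161 to 178 TPM. Khsrp was at 149 to 161 TPM in all libraries.

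The target genes of interferon-gamma and of STAT5 were counted in the same way. Of 28 interferon-gamma target genes, 27 were tested (Ciita only through R7-II), and 14 were higher and 3 lower in R7-II against R7-I, beside 40.6% and 15.5% of all genes. In R7-II against R7-III, 9 were higher and 3 lower, beside 35.6% and 18.0% of all genes. The medians of 0.22 and 0.07 lay near the 0.17 and 0.12 of all genes. With median-of-ratios scaling the counts were 9 and 5, and 8 and 4. Under that scaling 6194 and 6035 of all 11330 genes passed in these comparisons, 46.2% and 47.0% of them higher. In R7-III against R7-I, 2 were higher (Irgm2 by 0.59 and Psmb10 by 0.48) and 0 lower, beside 6.96% and 1.45% of all genes. At an unadjusted p under 0.05 by limma, 10 were higher and 2 lower, but no share of all genes was computed at that cutoff. The median was 0.16, beside 0.04 over all genes. With median-of-ratios scaling 2 were higher and 1 was lower, where 973 of all 11330 genes passed, 56.6% of them higher. The Irgm2 call was lost without R7-I replicate 1 (adjusted p = 0.0101) and the Psmb10 call with quantile normalization (adjusted p = 0.0109). Iigp1 was lower in R7-II, at 3.18 to 5.82 TPM against 13.4 to 17.5 TPM for R7-I and 14.4 to 16.6 TPM for R7-III, with log2 differences of -1.53 and -1.55. The list holds 13 genes of interferon-inducible GTPases, a subset formed after the values were seen. Of these, 7 were higher and 2 lower in R7-II against R7-I, beside 40.6% and 15.5% of all genes. In R7-II against R7-III, 5 were higher and 2 lower, beside 35.6% and 18.0%. With median-of-ratios scaling, whose shares of all genes are given above, the counts were 5 and 3, and 4 and 3. Whether these GTPase genes differ from other genes was not tested. Gbp4 was higher in R7-II, at 82.1 to 123 TPM against 37.4 to 50.6 TPM elsewhere, as was Tgtp1, at 55.2 to 69.9 TPM against 27.9 to 32.2 TPM. Gbp5 was lower, like Iigp1, with log2 differences of -0.30 against R7-I and -0.35 against R7-III (adjusted p = 5.61e-05 and 2.12e-05). B2m and H2-K1, which encode parts of the MHC class I molecule, were also higher in R7-II, by 0.35 and 0.76 against R7-I. Of 9 STAT5 target genes, all tested, 4 were higher and 3 lower in R7-II against R7-I, beside 40.6% and 15.5% of all genes, and 4 higher and 2 lower in R7-II against R7-III, beside 35.6% and 18.0%. With median-of-ratios scaling the counts were 3 and 4, and 2 and 2, and the medians before it were -0.04 and 0.01, below the 0.17 and 0.12 of all genes. By limma 0 passed in R7-III against R7-I, beside 6.96% higher and 1.45% lower of all genes. At an unadjusted p under 0.05, 2 were higher and 2 lower, again with no share of all genes computed. Socs3, a feedback inhibitor of gp130 cytokines, was at 19.2 to 28.8 TPM in R7-II against 3.68 to 4.53 TPM for R7-I and 2.23 to 3.97 TPM for R7-III, with log2 differences of 2.35 and 2.61. Bcl2, a survival factor, was at 32.6 to 41.1 TPM against 11.3 to 11.9 and 13.7 to 15.3 TPM. Ccnd2, the gene of cyclin D2, was at 387 to 397 TPM in R7-II against 448 to 565 TPM elsewhere, and its call against R7-I was lost without R7-I replicate 3 (adjusted p = 0.0103).

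The promoters of the cytokine genes were read to see what sequence they share. Windows were available from RefSeq (GRCm38.p6) for 7 of the 9 genes, all except Il10 and Il24, and motifs were searched on both strands in the 250 bases before the transcription start. The sequence is that of the reference strain C57BL/6J, and the cells were BALB/c. The NFAT core GGAAA was present in 7 of the 7, as in 55.6% of the 32851 promoter windows of the same length. It was found in the promoters of Il21 and Spp1, whose transcripts were near 0, as well as in those of the expressed genes. The AP-1 motif TGANTCA was found in Lif, against 6.75% of all windows, and TATAAA in Il2, Ifng and Spp1, against 12.4%. For Spp1, windows at different starts were read, so it had more chances of a match than the share per window allows. Its TATAAA began at -211 from the start and was absent from its other window, while those of Ifng and Il2 began at -30 and -31. The motifs TGACGTCA (CRE), GGGNNTTCC (NF-κB) and GGTGTGA (T-box) had no match in these windows, against 1.55%, 4.98% and 3.33% of all. A match is a description of letters and not evidence of binding. The promoters of Il2 (chr3:37125955-37126204, minus strand), its neighbour Il21 (chr3:37232637-37232886, minus strand), Ifng (chr10:118440796-118441045, plus strand) and Il3 (chr11:54267280-54267529, minus strand) follow from 5′ to 3′, because they set 3 expressed genes beside a gene near 0. Capitals mark GGAAA or its reverse complement TTTCC.
Il2: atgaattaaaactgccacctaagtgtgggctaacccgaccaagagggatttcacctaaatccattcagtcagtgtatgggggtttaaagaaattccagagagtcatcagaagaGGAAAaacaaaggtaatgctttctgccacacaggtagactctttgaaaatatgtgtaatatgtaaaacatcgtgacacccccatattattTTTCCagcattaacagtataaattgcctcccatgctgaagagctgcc
Il21: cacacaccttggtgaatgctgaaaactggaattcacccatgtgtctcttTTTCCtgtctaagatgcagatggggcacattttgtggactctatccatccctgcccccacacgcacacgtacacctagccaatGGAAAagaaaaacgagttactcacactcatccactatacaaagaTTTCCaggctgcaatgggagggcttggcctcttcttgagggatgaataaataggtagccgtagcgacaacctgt
Ifng: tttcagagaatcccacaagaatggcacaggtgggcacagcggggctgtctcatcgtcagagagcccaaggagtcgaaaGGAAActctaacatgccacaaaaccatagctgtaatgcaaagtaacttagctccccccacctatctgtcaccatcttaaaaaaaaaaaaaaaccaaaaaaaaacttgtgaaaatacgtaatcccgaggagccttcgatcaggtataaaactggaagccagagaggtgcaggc
Il3: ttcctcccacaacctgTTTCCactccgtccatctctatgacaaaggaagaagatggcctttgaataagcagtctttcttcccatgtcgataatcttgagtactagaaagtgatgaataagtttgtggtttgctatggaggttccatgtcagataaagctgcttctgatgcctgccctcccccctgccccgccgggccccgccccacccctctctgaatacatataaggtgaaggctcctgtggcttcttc
Il21, near 0 in all libraries, held 3 matches, Il2 held 2, and Ifng and Il3 held 1 each.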

How the data were processed

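Messenger RNA of 9 libraries was sequenced by the study, and the authors deposited a table of TPM values per gene, for which reads were aligned and quantified with RSEM 1.2.11 on mm10 (RefSeq genes), per the submitters' notes and methods. The table holds no counts, so no counting error was computed; columns sum to 1000000 or 999999. The members and lists were chosen with earlier results of these data known. Genes above 1 TPM in at least 1 library (11330 of 24060) were fitted as log2(TPM + 1) with limma 3.58.1 in R 4.3.3 (group means of 3 clones, eBayes with trend, no replicate block), and p-values were adjusted over all genes tested by Benjamini-Hochberg, with a threshold of 0.01. The fit was tested on simulated data. Counts at an unadjusted p under 0.05 have no share of all genes beside them and are descriptions. Fold values are ratios of mean TPM. Named genes were the 9 members; per list of 7 pathway lists the 2 of highest mean TPM and the 2 with the largest difference past the threshold in each comparison; and the 3 genes nearest in profile to each member spanning over 1 log2 between clone means. Genes next to a member were added for their position, and 7 list genes after their values were seen. The lists were other secreted cytokines, receptors of the members, JAK and STAT proteins, transcription factors of cytokine genes, AU-rich mRNA decay factors, interferon-gamma targets and STAT5 targets, beside 8 marker lists. Alternatives were pseudocounts of 0.1 and 5, no filter, a mean filter, median-of-ratios and quantile scaling, eBayes without trend, fits of only the clones compared, a replicate block, a threshold of 0.05 and leaving out each library. Positions and promoters came from RefSeq, read with Python 3.11.15 and pandas 2.3.3, and plots were drawn with matplotlib 3.10.9.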

Additional observations from a re-analysis of the deposited data

How the results depend on the processing

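All 5 cytokines tested were past the threshold in both R7-II comparisons under each of the 19 alternatives, with their direction kept. The looser threshold of 0.05 could not end such a call. Il3 and Csf2 passed the filter only through R7-I and R7-III, so for them this is a description. Ifng, Il2 and Lif exceeded 1 TPM in every library. In R7-III against R7-I, 2 of the 5 passed in the reported setting, 0 with a pseudocount of 0.1, 1 with quantile normalization and 1 to 2 when a single library was left out. With a replicate block, which pairs libraries by their replicate number, 1 passed. The block has little ground in the data, since correlations of same-number libraries lay between -0.0449 and 0.0888 after the clone means were removed, and 1 of 9 libraries correlated best with its own number in both other clones. The gene lost was Csf2 in each of these settings, joined by Il3 with the pseudocount of 0.1. Ifng, Il2 and Lif stayed short of the threshold in that comparison under every alternative. Over all genes, the number past the threshold in R7-III against R7-I was 953 as reported and 436 to 1120 with a library left out, where leaving out a library also lowers the number of samples. It was 682 with quantile normalization, 733 with the replicate block and 2142 at a threshold of 0.05. Apart from what follows from fewer samples or a looser threshold, the cause was not tested. The table holds no counts, so no limit was computed for a level of 0.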
